A study of Mus musculus with 22 samples.

Results

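The antiviral interferon-stimulated genes Rsad2, Cmpk2, Isg15, Ifit1, Ifit2, Ifit3, Oasl1, Oasl2, Mx1 and Ifih1 were followed through H3K27ac ChIP–seq of mouse Kupffer cells, the macrophages that reside in the liver sinusoids. Every 1000-bp window that the deposited annotation assigned to 1 of the 10 genes was taken, which gave 78 of 96381 windows. Rsad2 held 15 windows, Ifih1 14, Ifit2 and Mx1 10 each, Ifit3 9, Oasl1 8, Ifit1 5, Cmpk2 4, Isg15 2 and Oasl2 1. In the table of allele-resolved counts, 200 of 217456 regions carried these gene names.

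The libraries came from male mice of the control arm, from inbred A/J, from BALB/cJ and from C57BL/6J (3 H3K27ac libraries each) and from CB6F1/J males, the hybrid offspring of BALB/cJ females and C57BL/6J males (3 libraries, each read out per allele). Kupffer cells were sorted by flow cytometry as CD146-negative, CD45-positive cells with high F4/80 and intermediate CD11b. The labels name no engineered allele and give no age, although the authors' methods state an age range in weeks for the mice of all experiments. The labels do not tie a library to an animal, so p-values measure the spread between these libraries. In bulk ChIP–seq, fewer cells carrying the mark and less mark per cell cannot be told apart.

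H3K27ac, acetylation of histone H3 at lysine 27, marks active promoters and enhancers. Type I interferon acts through the receptor IFNAR1/IFNAR2, the kinases JAK1 and TYK2 and transcription factors that they activate, which bind the interferon-stimulated response element (ISRE) in promoters and enhancers of genes such as these. In macrophages, bacterial lipopolysaccharide (LPS) also induces them by way of TLR4, TRIF and interferon-β. Of the 78 windows, 20 (25.64%) were centered on an ATAC-seq peak named only from LPS-treated Kupffer cells, as were 10.96% of all 96381 windows, although the H3K27ac libraries themselves were from control mice.

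Sequences are shown for 2 promoters that hold the element and for the distal windows on which the strain comparisons turned. All are from the RefSeq assembly GRCm38.p6 (mm10, a C57BL/6J genome), so they carry none of the A/J or BALB/cJ variants, which were not analysed here. Capitals mark the ISRE core, searched as GAAA, any 2 bases and GAAA on both strands with overlapping matches allowed. The promoter stretches of Rsad2 (chr12:26456533-26456602) and Isg15 (chr4:156200845-156200926) are written 5′ to 3′ on the minus strand, the strand of both genes, and the others on the plus strand.

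Rsad2 promoter stretch: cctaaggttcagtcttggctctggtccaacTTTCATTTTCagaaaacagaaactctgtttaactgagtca

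Isg15 promoter stretch: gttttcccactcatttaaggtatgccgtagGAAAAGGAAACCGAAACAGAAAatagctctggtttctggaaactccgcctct

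Rsad2 downstream stretch with ISRE cores (chr12:26439457-26439557): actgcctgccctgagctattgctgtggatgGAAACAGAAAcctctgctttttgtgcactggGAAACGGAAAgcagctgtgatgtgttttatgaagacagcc

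Rsad2 downstream window, central bases (chr12:26438761-26439060): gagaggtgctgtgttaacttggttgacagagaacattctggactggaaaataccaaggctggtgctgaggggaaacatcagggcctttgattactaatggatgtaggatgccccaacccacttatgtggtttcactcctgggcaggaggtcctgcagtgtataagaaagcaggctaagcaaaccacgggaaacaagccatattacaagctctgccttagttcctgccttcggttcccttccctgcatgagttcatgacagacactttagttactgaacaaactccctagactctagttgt

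Mx1 upstream window, central bases (chr16:97480863-97481162): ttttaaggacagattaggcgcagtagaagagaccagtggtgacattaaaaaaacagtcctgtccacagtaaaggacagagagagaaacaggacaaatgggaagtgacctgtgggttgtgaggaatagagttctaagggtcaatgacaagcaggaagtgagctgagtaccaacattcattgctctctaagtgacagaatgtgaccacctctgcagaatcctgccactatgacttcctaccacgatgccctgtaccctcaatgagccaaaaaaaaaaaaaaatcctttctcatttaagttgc

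The 70 and 82 bases of the promoter stretches held 1 match in Rsad2 and 3 overlapping matches in Isg15. Within the 300-bp promoters of the RefSeq table, the ISRE core was found in 5 of the 9 members with an entry (Ifih1, Ifit1, Ifit3, Isg15 and Rsad2), and in 3.44% of 32851 promoters overall. The gamma-activated sequence, searched as TTC, any 3 bases and GAA, was found in the Ifit2 promoter alone, against 8.3% of all promoters. Of the 78 member windows 24 held an ISRE core, a larger share than the 15.2% of the 96238 windows searched. A gamma-activated sequence was held by 14 of the 78, a smaller share than the 27.2% of all windows. The downstream stretch of Rsad2, which was cut around its matches, held 2 ISRE cores. The central bases of the adjoining Rsad2 window and of the Mx1 window held neither motif. These are letter matches and do not show binding.

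Counts are given per 1000-bp window, scaled to the mean effective library size. Tags in windows ranged from 2291425.5 to 12980348 per parental library, with replicate 2 the shallowest in every strain. Windows nearest the start sites of the 12 Kupffer cell markers, among them Clec4f, Vsig4, Timd4 and Adgre1, had a median level of 175 normalized counts. The same median was 6.20 to 16.2 for markers of sinusoidal endothelial cells, hepatocytes, plasmacytoid dendritic cells, monocytes and neutrophils, B cells, and T and NK cells. The summed level of the T and NK cell markers (5 of 8 with a window) was 56.4 to 120.0 in A/J cells, 109.9 to 148 in BALB/cJ cells and 55.4 to 67.5 in C57BL/6J cells. For the plasmacytoid dendritic cell markers (5 of 8 with a window), the main producers of type I interferon, it was 95.1 to 151 in A/J cells, 91.6 to 137 in BALB/cJ cells and 102 to 148 in C57BL/6J cells. For the monocyte and neutrophil markers (6 of 9 with a window) it was 417 to 499 in A/J cells, 398 to 483 in BALB/cJ cells and 456 to 765 in C57BL/6J cells. For the Kupffer cell markers it was 1726 to 1985 in A/J cells, 1891 to 2101 in BALB/cJ cells and 1867 to 2785 in C57BL/6J cells. The part of these cell types in the results was not tested.

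The strain comparisons ask which promoters and enhancers of these genes differ between inbred backgrounds in the liver. Of the 78 windows, 54 passed a mean normalized count over 16 and were tested by edgeR among 60387 windows. Calls required that the log2 fold change exceed 1 in size and that p, adjusted by Benjamini–Hochberg over all of them, be below 0.05. For A/J over C57BL/6J, 7 member windows were called higher and 3 lower (18.5% of 54, beside 7.09% of all windows tested, 3.16% higher and 3.93% lower). For BALB/cJ over C57BL/6J, 5 were called higher and 7 lower (22.2%, beside 8.56%, 4.46% higher and 4.1% lower). For A/J over BALB/cJ, 1 was called higher and 0 lower (1.85%, beside 3.63%, 1.4% higher and 2.23% lower). All of the windows called higher than in C57BL/6J belonged to Rsad2. The windows called lower belonged to Ifit2, Ifit3, Oasl1, Oasl2 and Mx1, and no window of Cmpk2, Isg15, Ifit1 or Ifih1 was called in any strain comparison. Leaving out windows that overlap an earlier window of the same gene, 7 calls in A/J over C57BL/6J and 8 in BALB/cJ over C57BL/6J were left, of 39 windows tested. All windows were not counted in this way, and 27.97% of them overlap the window before, so these counts have no background. The libraries of the compared strains did not overlap in 35.2% of member windows for A/J and C57BL/6J, 38.9% for BALB/cJ and C57BL/6J and 16.7% for A/J and BALB/cJ, beside 22%, 24.9% and 19.1% of all windows. The median log2 fold change of the 54 windows was 0.14 in A/J over BALB/cJ, -0.15 in A/J over C57BL/6J and -0.23 in BALB/cJ over C57BL/6J, whereas that of all windows tested was 0.0079, -0.0098 and -0.013 in the same order. The 173 tested windows of the Kupffer cell markers had medians of -0.04, -0.19 and -0.24 in that order. Of them, 4 were called higher and 12 lower in A/J over C57BL/6J (9.25%, beside 7.09% of all windows). In BALB/cJ over C57BL/6J, 5 were called higher and 21 lower (15.03%, beside 8.56%).

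The counts moved with single libraries. In place of 12 calls for BALB/cJ over C57BL/6J, 6 were made without BALB/cJ replicate 1, and 7 without BALB/cJ replicate 3 or without C57BL/6J replicate 3. Over all windows, the 5171 calls of this comparison became 4321, 3797 and 3328 in the same order. The only call for A/J over BALB/cJ was lost without any 1 of the A/J or BALB/cJ libraries or without C57BL/6J replicate 3. In those fits 1331 to 2265 of all windows were called, in place of 2192. For A/J over C57BL/6J, 7 to 11 calls were made across the 9 libraries left out, beside 2719 to 5020 over all windows, where all 9 libraries gave 4282. Without number 2 of every strain the split was 5 higher and 6 lower for A/J over C57BL/6J and 4 higher and 11 lower for BALB/cJ over C57BL/6J, of 56 windows tested. Over all windows, 5978 and 6918 were called in this setting, in place of 4282 and 5171. The A/J call at chr12:26443687-26444687 and both calls at chr12:26460530-26461530, windows of Rsad2, were then lost. With library totals in place of TMM scaling, BALB/cJ over C57BL/6J had 5 higher and 4 lower, and 4836 of all windows were called.

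At the windows nearest the start sites, the 10 genes spanned a wide range of H3K27ac. Oasl1 (mean ± SD, n = 3: 339 ± 83.4 in A/J cells, 397 ± 148 in BALB/cJ cells and 451 ± 227 in C57BL/6J cells) and Ifih1 (374 ± 72.3 in A/J cells, 353 ± 90.5 in BALB/cJ cells and 373 ± 98.4 in C57BL/6J cells) were highest. Ifih1 was above Oasl1 in A/J cells and below it in the others. Rsad2 followed (262 ± 91.6 in A/J cells, 247 ± 19.2 in BALB/cJ cells and 272 ± 62.7 in C57BL/6J cells). Isg15, Ifit3, Cmpk2 and Mx1 lay between these and the lowest, with strain means from 96.5 (Mx1 in BALB/cJ) to 231 (Isg15 in A/J). Oasl2 and Ifit2 were lower, at 54.97 ± 15.2 in A/J cells, 32.1 ± 4.33 in BALB/cJ cells and 69.3 ± 21.2 in C57BL/6J cells for Oasl2. Ifit2 had 40.1 ± 14.1 in A/J cells, 34.8 ± 6.75 in BALB/cJ cells and 68.2 ± 18.7 in C57BL/6J cells. Taking the order Oasl1, Ifih1, Rsad2, Isg15, Ifit3, Cmpk2, Mx1, Oasl2, Ifit2 and Ifit1, the gap to the next gene exceeded the sum of both SDs in all 3 strains only from Mx1 to Oasl2 and from Ifit2 to Ifit1. The nearest window named Ifit1 lay 21.4 kb from its start site and held 11.5 ± 2.29 in A/J cells, 17.8 ± 3.78 in BALB/cJ cells and 18.7 ± 4.21 in C57BL/6J cells, because the window over the Ifit1 promoter carries the name Ifit1bl2 in the deposited annotation. Of these 10 windows, those of Oasl2 and Ifit2 were called, both lower in BALB/cJ than in C57BL/6J.

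**Figure D1:**
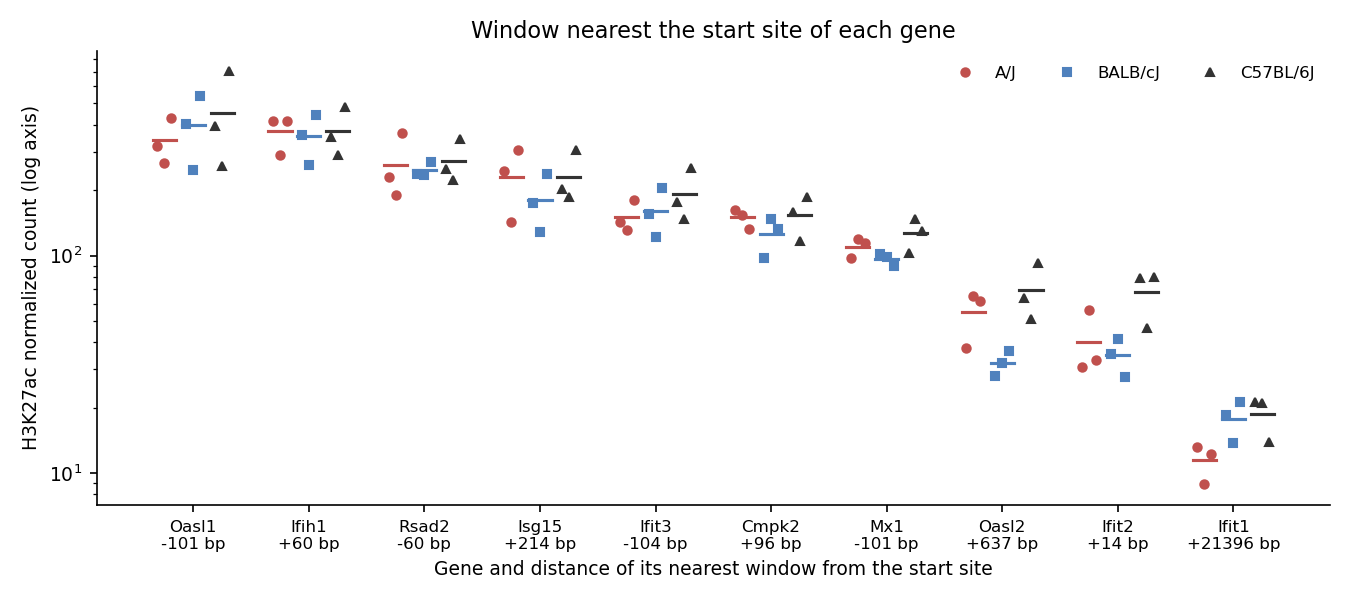
H3K27ac normalized counts (log axis) at the window nearest the start site of each gene, with a point per library and a bar at the mean of 3 libraries in each strain. The 3 BALB/cJ libraries lie below the 3 C57BL/6J libraries at Oasl2 and Ifit2.

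Rsad2 encodes viperin, a radical SAM enzyme that converts CTP to a nucleotide analog that terminates viral RNA chains, and Cmpk2, its divergent neighbor on chromosome 12, encodes a mitochondrial nucleoside monophosphate kinase that supplies nucleotides. At the Rsad2 promoter, chr12:26456012-26457012, the 3 strains did not separate. Its H3K27ac was 230.4, 189.8 and 365 in A/J cells, 238, 233 and 269 in BALB/cJ cells, and 249, 224 and 343 in C57BL/6J cells (A/J over C57BL/6J -0.04 ± 0.24, adjusted p = 0.956; BALB/cJ over C57BL/6J -0.15 ± 0.24, adjusted p = 0.794). The strains did separate beyond the other end of the gene, 2.72 to 6.19 kb past its 3′ end and 16.4 to 19.9 kb from its start site.

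At chr12:26438410-26439410, an intergenic window centered 3.83 kb past the 3′ end, H3K27ac was 119, 131 and 150.1 in A/J cells, 108, 139.6 and 124 in BALB/cJ cells, and 7.99, 9.31 and 8.19 in C57BL/6J cells. All 6 libraries of A/J and BALB/cJ were above 100 and all 3 of C57BL/6J under 10. The level was 15.8-fold higher in A/J (log2 fold change 3.98 ± 0.31 (SE), adjusted p = 1.57e-09) and 14.5-fold higher in BALB/cJ (3.86 ± 0.31, adjusted p = 2.56e-09) than in C57BL/6J, and the first 2 strains did not differ beyond their spread (0.12 ± 0.23, adjusted p = 0.897). The deposited peak names list a control ATAC-seq peak here from A/J and BALB/cJ but not from C57BL/6J.

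The next windows had the same order of strains, and since each overlaps the one before it they share reads and are not separate evidence. chr12:26438960-26439960, which holds the printed stretch with 2 ISRE cores, had 162, 145 and 181 in A/J cells, 134, 158 and 137 in BALB/cJ cells, and 17.3, 4.66 and 10.1 in C57BL/6J cells (3.86 ± 0.31, adjusted p = 3.16e-09 for A/J over C57BL/6J; 3.65 ± 0.32, adjusted p = 8.12e-09 for BALB/cJ over C57BL/6J). chr12:26439519-26440519 had 107, 97.9 and 123 in A/J cells, 76.8, 109.9 and 94.2 in BALB/cJ cells, and 17.3, 2.33 and 6.93 in C57BL/6J cells. Its log2 fold changes were 3.57 ± 0.37, adjusted p = 1.36e-07 for A/J and 3.31 ± 0.37, adjusted p = 4.93e-07 for BALB/cJ over C57BL/6J. The separate window chr12:26436051-26437051, 6.19 kb past the gene, had 39.8, 83.1 and 62.7 in A/J cells, 50.7, 66.4 and 46.7 in BALB/cJ cells, and 7.99, 11.6 and 6.30 in C57BL/6J cells and was also higher in A/J (2.89 ± 0.40, adjusted p = 1.04e-05) and in BALB/cJ (2.75 ± 0.40, adjusted p = 2.18e-05) than in C57BL/6J. All 8 of these calls, at the 4 windows over C57BL/6J, were kept in every alternative that was run.

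At chr12:26438410-26439410 ChIP input, scaled to the tags in all windows and expressed as CPM, was 2.51, 8.87 and 4.87 in A/J cells, 10.1, 5.58 and 8.73 in BALB/cJ cells and 19.7 in the 1 C57BL/6J library, so reads were placed there in all 3 strains.

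**Figure D2:**
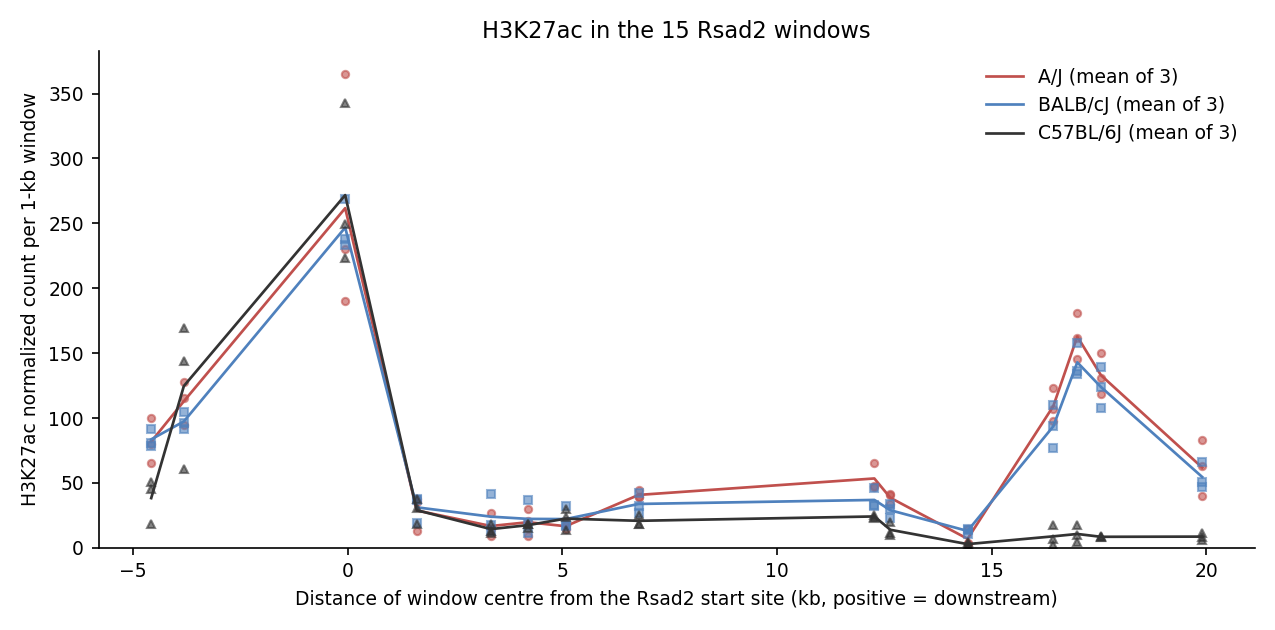
H3K27ac normalized count per 1000-bp window at the 15 Rsad2 windows, against the distance of the window center from the Rsad2 start site in kb (positive is downstream). Points are libraries and lines join the means of 3 libraries in each strain. The strains overlap at the promoter and part at 16.4 to 19.9 kb, where A/J and BALB/cJ lie far above C57BL/6J.

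Smaller differences were found inside the gene and upstream of it. At chr12:26443314-26444314, over the last exon, H3K27ac was 40.5, 41.5 and 33.6 in A/J cells, 33.8, 29.8 and 23.4 in BALB/cJ cells, and 19.99, 11.6 and 10.1 in C57BL/6J cells, higher in A/J than in C57BL/6J (1.48 ± 0.38, adjusted p = 0.0119). That call was lost without A/J replicate 1 (1.41, adjusted p = 0.0607) or C57BL/6J replicate 3 (1.19, adjusted p = 0.148). BALB/cJ over C57BL/6J had 1.08 ± 0.39, adjusted p = 0.0769, which passed the test with the replicate number as a block (1.06, adjusted p = 0.027). The overlapping window chr12:26443687-26444687 had 47.9, 65.3 and 47.2 in A/J cells, 32.1, 45.8 and 32.9 in BALB/cJ cells, and 25.3, 23.3 and 23.9 in C57BL/6J cells, with A/J higher than C57BL/6J (1.09 ± 0.31, adjusted p = 0.0286). Without A/J replicate 1 (1.15, adjusted p = 0.0634), A/J replicate 2 (0.97, adjusted p = 0.0697), A/J replicate 3 (1.18, adjusted p = 0.0586), C57BL/6J replicate 1 (1.12, adjusted p = 0.0839) or C57BL/6J replicate 3 (1.07, adjusted p = 0.138) it was not called.

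Upstream, 4.58 kb from the start site, chr12:26460530-26461530 had 100.1, 65.3 and 80.2 in A/J cells, 81.1, 91.6 and 78.1 in BALB/cJ cells, and 45.3, 18.6 and 51.01 in C57BL/6J cells. It was higher than in C57BL/6J in A/J (1.03 ± 0.29, adjusted p = 0.0265) and in BALB/cJ (1.01 ± 0.30, adjusted p = 0.0255), at the edge of the threshold on size. The A/J call was lost without A/J replicate 1 (0.85, adjusted p = 0.163), A/J replicate 3 (1.08, adjusted p = 0.0586), C57BL/6J replicate 1 (1.10, adjusted p = 0.0636) or C57BL/6J replicate 2 (0.79, adjusted p = 0.0809). The BALB/cJ call was lost with the replicate block (0.99, adjusted p = 0.00184) and without BALB/cJ replicate 1 (1.03, adjusted p = 0.0614), BALB/cJ replicate 2 (0.95, adjusted p = 0.0528), BALB/cJ replicate 3 (1.06, adjusted p = 0.0629), C57BL/6J replicate 1 (1.09, adjusted p = 0.0578) or C57BL/6J replicate 2 (0.77, adjusted p = 0.0827). The other 6 tested Rsad2 windows besides the promoter, at 1.61 to 6.78 kb inside the gene and 3.82 kb upstream, were not called in a strain comparison.

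No Cmpk2 window was called. Its promoter window, chr12:26468811-26469811, had 163, 154 and 133 in A/J cells, 97.9, 146 and 133 in BALB/cJ cells, and 159, 116 and 185 in C57BL/6J cells, and its 3 other windows, from 4.63 kb upstream to 0.72 kb downstream of the start site, were not called either. The Cmpk2 window of lowest p, chr12:26465300-26466300, had 23.6, 23.7 and 29.1 in A/J cells, 17.7, 22.9 and 12.4 in BALB/cJ cells, and 17.3, 13.97 and 17.6 in C57BL/6J cells (0.63 ± 0.38, adjusted p = 0.411 for A/J over C57BL/6J).

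Ifit1, Ifit2 and Ifit3 lie in a cluster on chromosome 19 and encode tetratricopeptide repeat proteins that bind viral RNA or restrain its translation. At the called windows of this cluster C57BL/6J had the highest mean, although its libraries overlapped those of A/J at the Ifit2 start-site window. At chr19:34585816-34586816, an intron window 2.79 kb from the Ifit3 start site, H3K27ac was 9.57, 8.90 and 23.3 in A/J cells, 20.3, 25.2 and 21.9 in BALB/cJ cells, and 59.96, 60.5 and 51.6 in C57BL/6J cells. The C57BL/6J libraries were all above 50 and the other 6 all below 26, with -1.88 ± 0.36, adjusted p = 0.000817 for A/J and -1.36 ± 0.35, adjusted p = 0.0108 for BALB/cJ over C57BL/6J. The BALB/cJ call was lost without BALB/cJ replicate 1 (-1.29, adjusted p = 0.0561) or BALB/cJ replicate 3 (-1.36, adjusted p = 0.0576). At chr19:34587904-34588904, which covers the end of Ifit3, it was 31.7, 56.4 and 40.1 in A/J cells, 43.1, 66.4 and 42.4 in BALB/cJ cells, and 111, 139.7 and 104 in C57BL/6J cells (-1.53 ± 0.28, adjusted p = 0.000497 for A/J and -1.26 ± 0.28, adjusted p = 0.0028 for BALB/cJ over C57BL/6J). Both calls at this window were kept in all 18 alternatives. The Ifit3 promoter itself, chr19:34582925-34583925, had 143, 131 and 179.8 in A/J cells, 155, 121 and 205 in BALB/cJ cells, and 176, 147 and 252 in C57BL/6J cells and was not called (-0.35 ± 0.25, adjusted p = 0.497 for A/J over C57BL/6J). Ifit3 has a near-identical copy, Ifit3b, and reads that fit both may have been split between them, so counts inside the gene are uncertain.

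Ifit2 had the same direction with smaller differences. Its start-site window chr19:34550602-34551602 had 30.9, 56.4 and 32.99 in A/J cells, 35.5, 41.2 and 27.7 in BALB/cJ cells, and 78.6, 46.6 and 79.4 in C57BL/6J cells, lower in BALB/cJ than in C57BL/6J (-1.05 ± 0.31, adjusted p = 0.0274), while A/J over C57BL/6J was -0.92 ± 0.31, adjusted p = 0.0689. The BALB/cJ call was lost with library totals (-1.01, adjusted p = 0.0533) and without BALB/cJ replicate 1 (-1.09, adjusted p = 0.0744), BALB/cJ replicate 3 (-0.89, adjusted p = 0.164), C57BL/6J replicate 1 (-0.95, adjusted p = 0.115) or C57BL/6J replicate 3 (-0.92, adjusted p = 0.172). The A/J comparison passed without A/J replicate 2 (-1.13, adjusted p = 0.023), C57BL/6J replicate 2 (-1.10, adjusted p = 0.0248) or number 2 of every strain (-1.32, adjusted p = 0.00309). In the first intron, chr19:34553469-34554469 had 87.6, 104 and 87.97 in A/J cells, 90.3, 66.4 and 82.5 in BALB/cJ cells, and 133, 107 and 240.0 in C57BL/6J cells, lower in BALB/cJ (-1.02 ± 0.27, adjusted p = 0.0124). C57BL/6J replicate 3 was the highest library there. The call was lost in DESeq2 (-0.99, adjusted p = 0.00803), with library totals (-0.98, adjusted p = 0.0113) and without BALB/cJ replicate 2 (-0.93, adjusted p = 0.0419), BALB/cJ replicate 3 (-1.04, adjusted p = 0.0536) or C57BL/6J replicate 3 (-0.58, adjusted p = 0.259). A/J over C57BL/6J (-0.84 ± 0.27, adjusted p = 0.0516) passed without C57BL/6J replicate 2 (-1.04, adjusted p = 0.00879) or number 2 of every strain (-1.13, adjusted p = 0.00441). Over the 6 tested windows of each gene, the median log2 fold change in BALB/cJ over C57BL/6J was -0.89 for Ifit2 and -0.75 for Ifit3, and in A/J over C57BL/6J -0.75 for Ifit2 and -0.62 for Ifit3. The windows chr19:34569705-34570705 and chr19:34570683-34571683, which the deposited annotation assigns to Ifit3, lay inside Ifit2, so the Ifit3 median is partly of Ifit2.

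The 5 windows named Ifit1 were all 21.4 to 44.2 kb from the Ifit1 start site, and 3 of them lay in Slc16a12. Only chr19:34661785-34662785 was tested, with 13.3, 8.90 and 12.3 in A/J cells, 18.6, 13.7 and 21.2 in BALB/cJ cells, and 21.3, 20.96 and 13.9 in C57BL/6J cells, and it was not called (-0.61 ± 0.41, adjusted p = 0.585 for A/J over BALB/cJ). They give no measure of the Ifit1 promoter, and the tested window overlaps another gene, Ifit1bl1.

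Isg15 encodes a ubiquitin-like protein that is conjugated to viral and host proteins. Its promoter-proximal window, chr4:156200104-156201104, had 245, 142 and 305 in A/J cells, 174, 128 and 237 in BALB/cJ cells, and 201, 186 and 304 in C57BL/6J cells, and the strains overlapped (0.37 ± 0.27, adjusted p = 0.613 for A/J over BALB/cJ). The second window, chr4:156199250-156200250, had 44.9, 23.7 and 30.4 in A/J cells, 24.5, 13.7 and 21.9 in BALB/cJ cells, and 26.6, 27.9 and 19.5 in C57BL/6J cells and was not called (0.71 ± 0.36, adjusted p = 0.375 for A/J over BALB/cJ).

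Oasl1 and Oasl2 encode proteins related to the oligoadenylate synthetases. Mouse OASL1 is known to restrain translation of IRF7, and OASL2 retains synthetase activity. At the Oasl1 promoter, chr5:114922639-114923639, H3K27ac was 319, 267 and 430.1 in A/J cells, 400.2, 247 and 543 in BALB/cJ cells, and 392, 258 and 702 in C57BL/6J cells and was not called in any strain comparison. In its first intron, chr5:114924121-114925121 had 102, 94.9 and 90.6 in A/J cells, 162, 146 and 158 in BALB/cJ cells, and 256, 126 and 235 in C57BL/6J cells. A/J was lower than C57BL/6J (-1.12 ± 0.25, adjusted p = 0.003), with all A/J libraries below all others, and the call was lost without C57BL/6J replicate 1 on the threshold of size (-0.95, adjusted p = 0.0374). BALB/cJ over C57BL/6J was -0.42 ± 0.24, adjusted p = 0.323. The single Oasl2 window, chr5:114897071-114898071, over the start of the gene, had 37.5, 65.3 and 62.1 in A/J cells, 27.9, 32.05 and 36.5 in BALB/cJ cells, and 63.96, 51.2 and 92.6 in C57BL/6J cells. BALB/cJ was lower than C57BL/6J (-1.15 ± 0.31, adjusted p = 0.014), a call lost without BALB/cJ replicate 1 (-1.04, adjusted p = 0.0803) or C57BL/6J replicate 3 (-0.85, adjusted p = 0.194).

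Mx1 encodes a dynamin-like GTPase that blocks influenza and related viruses. RefSeq annotates it as a transcribed pseudogene in the C57BL/6J reference, and the inactive Mx1 of many inbred strains is well known. Its promoter, chr16:97462507-97463507, had 97.2, 119 and 114 in A/J cells, 101, 98.4 and 89.8 in BALB/cJ cells, and 103, 147 and 130.4 in C57BL/6J cells and was not called. Upstream, 2 windows within Fam3b, which the deposited annotation assigns to Mx1, parted BALB/cJ from the other strains. chr16:97478371-97479371, 15.96 kb from the start site, had 48.6, 38.6 and 39.5 in A/J cells, 17.7, 29.8 and 18.99 in BALB/cJ cells, and 35.98, 41.9 and 55.4 in C57BL/6J cells. BALB/cJ was lower than C57BL/6J there (-1.12 ± 0.33, adjusted p = 0.0284), a call lost with library totals (-1.08, adjusted p = 0.0532) and without BALB/cJ replicate 1 (-0.99, adjusted p = 0.138), BALB/cJ replicate 3 (-1.03, adjusted p = 0.139) or C57BL/6J replicate 3 (-0.88, adjusted p = 0.237). The A/J to BALB/cJ difference was 1.03 ± 0.33, adjusted p = 0.0893. It passed with the replicate block (1.06, adjusted p = 0.0156) or without number 2 of every strain (1.25, adjusted p = 0.0365).

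chr16:97480512-97481512, 18.11 kb from the Mx1 start site, had 30.9, 41.5 and 30.4 in A/J cells, 8.44, 13.7 and 16.1 in BALB/cJ cells, and 25.3, 37.3 and 34.6 in C57BL/6J cells, and every BALB/cJ library was below every other library. BALB/cJ was lower than C57BL/6J (-1.34 ± 0.38, adjusted p = 0.0225), a call lost without BALB/cJ replicate 1 (-1.07, adjusted p = 0.151) or C57BL/6J replicate 3 (-1.26, adjusted p = 0.119). A/J was higher than BALB/cJ (1.37 ± 0.38, adjusted p = 0.0378), the only call of this comparison among the members. It was lost in DESeq2 (1.39, adjusted p = 0.0517), with library totals (1.39, adjusted p = 0.0593), with the 2 strains alone (1.37, adjusted p = 0.0535) and without A/J replicate 1 (1.42, adjusted p = 0.0868), A/J replicate 2 (1.27, adjusted p = 0.0829), A/J replicate 3 (1.46, adjusted p = 0.0932), BALB/cJ replicate 1 (1.10, adjusted p = 0.221), BALB/cJ replicate 2 (1.40, adjusted p = 0.0552), BALB/cJ replicate 3 (1.68, adjusted p = 0.0677) or C57BL/6J replicate 3 (1.37, adjusted p = 0.051).

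**Figure D3:**
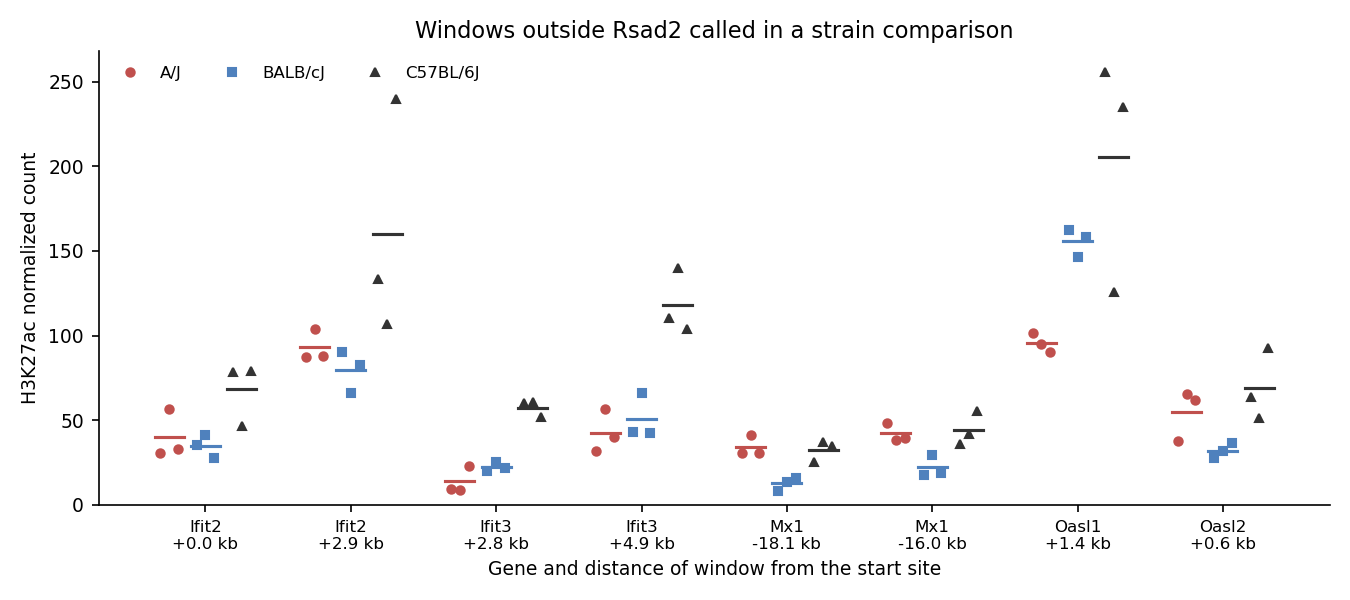
H3K27ac normalized counts at the 8 windows outside Rsad2 that were called in a strain comparison, with a point per library and a bar at the mean of 3 libraries in each strain. The C57BL/6J mean is highest at the Ifit2, Ifit3, Oasl1 and Oasl2 windows, although its libraries overlap those of another strain at some of them. BALB/cJ alone is low at the 2 Mx1 windows.

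Ifih1 encodes MDA5, the cytosolic sensor of long double-stranded RNA that signals through MAVS. Its promoter, chr2:62645695-62646695, was among the most acetylated of the set, with 416, 291 and 416 in A/J cells, 357, 261 and 442 in BALB/cJ cells, and 349, 289 and 481 in C57BL/6J cells. Its strain differences were close to zero (0.01 ± 0.25, adjusted p = 0.994 for A/J over C57BL/6J; -0.08 ± 0.25, adjusted p = 0.905 for BALB/cJ over C57BL/6J). The adjoining windows averaged 271 (A/J), 282 (BALB/cJ) and 318 (C57BL/6J) at 0.63 kb downstream, and 190.1 (A/J), 163 (BALB/cJ) and 177 (C57BL/6J) at 0.45 kb upstream. The window of lowest p, chr2:62639455-62640455, in an intron, had 16.2, 8.90 and 22.6 in A/J cells, 28.7, 27.5 and 17.5 in BALB/cJ cells, and 33.3, 32.6 and 23.3 in C57BL/6J cells and was not called (-0.72 ± 0.39, adjusted p = 0.333 for A/J over C57BL/6J). All 8 tested windows of Ifih1 stayed uncalled.

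In CB6F1/J both alleles share 1 nucleus, so a difference between strains that is carried by the allele itself appears between the alleles. Reads were assigned by variants they span, and 62 of the 200 member regions held any. All windows of Ifih1, Ifit3, Isg15 and Mx1 held 0 allelic counts in all 3 libraries on both alleles, so their strain differences have no F1 counterpart here. At the region over the Ifih1 start site, 94, 252 and 148.5 reads matched the BALB/cJ genome perfectly and 94, 246.5 and 148 the C57BL/6J genome, but 0 spanned a variant. Of the members, 11 windows were tested (6 of Rsad2, 3 of Oasl1 and 2 of Cmpk2, of which the 2 of Cmpk2 and 2 of Rsad2 share the same allelic counts), and 1 was called (9.09%, beside 7.2% of 5234 windows, 2.94% higher on the BALB/cJ allele).

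The called window was 1 of the Rsad2 downstream windows. It holds the printed ISRE cores, which are those of the C57BL/6J reference. The downstream windows that start at 26436051, 26438410 and 26439519 hold no core, and a part of the cores in the allele difference was not tested. At chr12:26438960-26439960, the raw allelic counts of the 3 F1 libraries were 14.5, 45.5 and 38 on the BALB/cJ allele and 0, 5 and 3.5 on the C57BL/6J allele, and the BALB/cJ allele was higher (log2 fold change 3.44 ± 0.66, adjusted p = 0.00193). Blocking on the F1 library, the difference was as large but did not pass (3.53, adjusted p = 0.0578), and 134 of all windows were called in place of 377. It stayed called without F1 replicate 1 (3.25, adjusted p = 0.00166), whereas without replicate 2 or replicate 3 it fell below the depth filter and has no value, and 0 of the 6 and 10 member windows then tested were called. Over all windows, 148 were called without replicate 2 and 133 without replicate 3. The strain difference at this window, 3.65, minus the allele difference was, in the joint fit of both, 0.17 ± 0.65 (adjusted p = 0.961).

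The neighboring Rsad2 windows had too few allelic reads to pass the filter, and were not tested. Their raw allelic counts were 3.5, 26.5 and 22 on the BALB/cJ allele and 0, 3 and 0 on the C57BL/6J allele at chr12:26438410-26439410. They were 11.5, 36.5 and 24.5 on the BALB/cJ allele and 3, 5 and 3 on the C57BL/6J allele at chr12:26436051-26437051. At chr12:26439519-26440519 they were 2, 12.5 and 10.5 on the BALB/cJ allele and 0, 7 and 4 on the C57BL/6J allele. In all 3 windows the BALB/cJ allele exceeded the C57BL/6J allele in every library, although in the last of them all BALB/cJ allele counts came from 1 region and all C57BL/6J allele counts from another. 1 F1 region enters both of the windows that start at 26438410 and 26438960. Without F1 replicate 1, 3 member windows were called, and the added ones were chr12:26436051-26437051 (2.92, adjusted p = 0.00778) and the Oasl1 intron window (1.42, adjusted p = 0.0307). Without a filter on depth, 4 were called, at the same 3 windows and at chr12:26438410-26439410 (3.98, adjusted p = 0.00366). Over all windows, 410 were called in the first of these settings and 702 in the second.

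At the Rsad2 promoter the alleles overlapped, with 59, 100 and 99.5 on the BALB/cJ allele and 28, 103.5 and 92 on the C57BL/6J allele (0.33 ± 0.28, adjusted p = 0.684). The Cmpk2 promoter had 8.5, 26.5 and 28.5 on the BALB/cJ allele and 2.5, 27 and 19.5 on the C57BL/6J allele (0.46 ± 0.58, adjusted p = 0.86). The 2 windows over the last Rsad2 exon share allelic counts of 39.5, 24 and 16 on the BALB/cJ allele and 12, 16 and 13 on the C57BL/6J allele (1.13 ± 0.54, adjusted p = 0.291). At the upstream Rsad2 window chr12:26460530-26461530, BALB/cJ over C57BL/6J was 1.01 between strains and -0.36 between alleles, a difference in the joint fit of 1.42 ± 0.54 that did not pass (adjusted p = 0.209).

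The Oasl1 intron window, chr5:114924121-114925121, had allelic counts of 13.5, 91.5 and 52.5 on the BALB/cJ allele and 1, 26.5 and 28.5 on the C57BL/6J allele (1.53 ± 0.55, adjusted p = 0.116), while BALB/cJ over C57BL/6J between the strains was -0.42. The strain minus the allele difference was -1.94 ± 0.56 (adjusted p = 0.0551) and it passed the test with the replicate block (-2.01, adjusted p = 0.00196). With TMM scaling and without the block, 0 of the 11 differences between strain and allele passed in edgeR, beside 2.43% of 5232 windows. An unadjusted p under 0.05 was found for 2 of the 11, beside 12.3% of all windows tested. The Oasl1 intron window passed in DESeq2 (-1.94, adjusted p = 0.0255), and in edgeR with RLE size factors (-1.96, adjusted p = 0.0351), library totals (-1.93, adjusted p = 0.0314), a mean count over 32 (-1.94, adjusted p = 0.0435) or no filter (-1.94, adjusted p = 0.0287). Oasl2 was not tested between alleles and had counts of 8, 18 and 10 on the BALB/cJ allele and 7.5, 39.5 and 11 on the C57BL/6J allele.

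**Figure D4:**
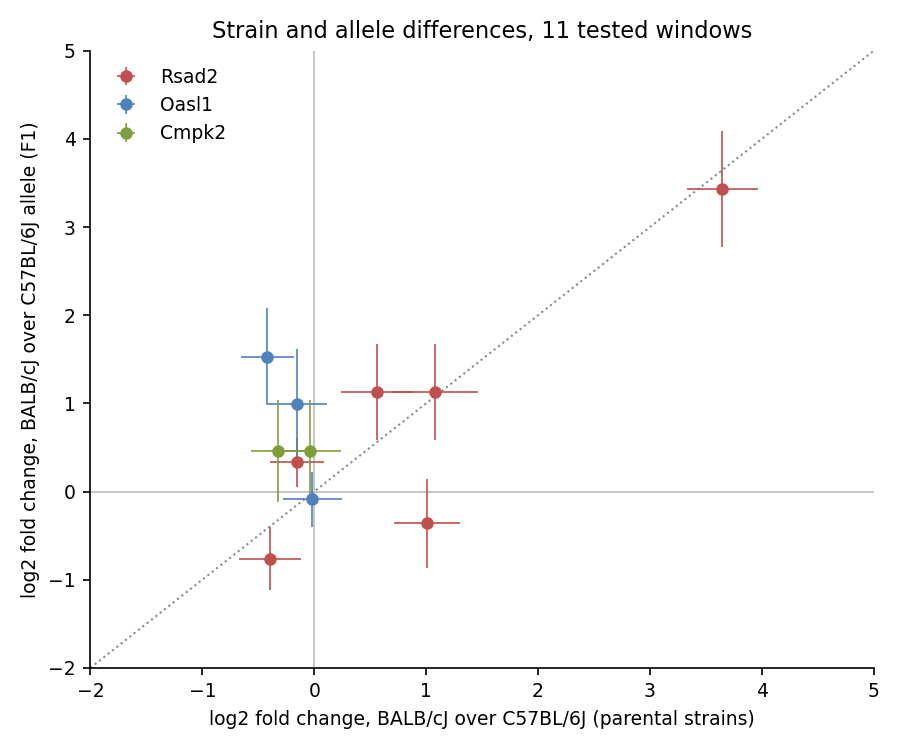
Log2 fold change of BALB/cJ over C57BL/6J between F1 alleles (vertical) against that between the parental strains (horizontal) at the 11 tested member windows of Rsad2, Oasl1 and Cmpk2. Bars are standard errors and the dotted line marks equality. The Rsad2 downstream window at 3.65 and 3.44 lies near the line, and the highest Oasl1 point, at -0.42 and 1.53, lies off it.

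Other genes of the pathway were read from lists that, like the members, were chosen with earlier results known. Among 39 other antiviral interferon-stimulated genes, 160 windows of 37 genes were tested. Over C57BL/6J, A/J had 2 called higher and 13 lower, BALB/cJ had 2 higher and 17 lower, and A/J over BALB/cJ had 2 higher and 0 lower. These are 9.38%, 11.9% and 1.25% of its windows, beside 7.09%, 8.56% and 3.63% of all windows. The median log2 fold change was -0.26 for A/J and -0.32 for BALB/cJ over C57BL/6J. In the Ifit cluster, the Ifit3b promoter, chr19:34607321-34608321, had 174, 91.96 and 164 in A/J cells and 352, 275 and 449 in C57BL/6J cells (-1.29 ± 0.24, adjusted p = 0.000623). The promoter of Ifit1bl1 had 51.5, 47.5 and 56.9 in A/J cells, 34.6, 36.6 and 48.9 in BALB/cJ cells, and 94.6, 126 and 156 in C57BL/6J cells, lower in both A/J (-1.26 ± 0.26, adjusted p = 0.00189) and BALB/cJ (-1.64 ± 0.27, adjusted p = 0.000115) than in C57BL/6J.

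Elsewhere on that list, a window downstream of Bst2, which tethers budding virions, was lowest in BALB/cJ, with 49.3, 71.2 and 37.5 in A/J cells, 5.07, 4.58 and 2.19 in BALB/cJ cells, and 50.6, 53.6 and 44.7 in C57BL/6J cells (3.70 ± 0.44, adjusted p = 3.15e-06 for A/J over BALB/cJ; -3.68 ± 0.44, adjusted p = 1.35e-06 for BALB/cJ over C57BL/6J). An intergenic window assigned to Samd9l, 53504 bp from its start site, had 9.52 ± 2.52 in A/J cells and 106 ± 53.2 in C57BL/6J cells (-3.48 ± 0.47, adjusted p = 1.85e-05) and, for BALB/cJ over C57BL/6J, -3.66 ± 0.48, adjusted p = 1.07e-05. Ifi44 ran the other way, with 73.6, 53.4 and 94.4 in A/J cells and 31.98, 9.31 and 22.7 in C57BL/6J cells at its promoter (1.75 ± 0.33, adjusted p = 0.000709). An intron window of Epsti1 was lower in BALB/cJ than in C57BL/6J (-1.73 ± 0.29, adjusted p = 0.000132).

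Among RNA and DNA sensors and their adaptors, 4 of 130 windows were called in A/J and 2 in BALB/cJ over C57BL/6J, all lower, and 1 was lower in A/J over BALB/cJ. These are 3.08%, 1.54% and 0.769% of its windows, below the 7.09%, 8.56% and 3.63% of all windows, and the genes named next are those few. An intron window of Dhx58, which encodes the MDA5 and RIG-I regulator LGP2, was lowest in A/J, with 6.63, 11.9 and 7.76 in A/J cells, 61.6, 57.2 and 40.2 in BALB/cJ cells, and 55.96, 37.3 and 66.1 in C57BL/6J cells (-2.72 ± 0.38, adjusted p = 3.14e-05 for A/J over BALB/cJ; -2.79 ± 0.38, adjusted p = 9.26e-06 over C57BL/6J). A window upstream of Tbk1, the kinase that activates IRF3, had 22.1, 23.7 and 16.2 in A/J cells, 37.99, 41.2 and 28.5 in BALB/cJ cells, and 197, 149 and 263 in C57BL/6J cells (-3.37 ± 0.30, adjusted p = 1.13e-08 for A/J and -2.55 ± 0.28, adjusted p = 2.75e-07 for BALB/cJ over C57BL/6J). An intergenic window assigned to Trim25, a RIG-I ubiquitin ligase, was also lower in A/J (-2.03 ± 0.24, adjusted p = 9.61e-07) and BALB/cJ (-2.13 ± 0.24, adjusted p = 5.07e-07). It lay 29531 bp from the Trim25 start site.

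Of the interferon ligands and receptors, 80 windows were tested, with 2 higher and 6 lower in A/J and, in BALB/cJ, 5 higher and 6 lower over C57BL/6J. That is 10% and 13.75% of them, beside 7.09% and 8.56% of all windows, and 0 were called in A/J over BALB/cJ, beside 3.63%. They ran in opposite directions at neighboring receptor genes on chromosome 16. A window upstream of Ifnar1, chr16:91475452-91476452, had 326, 208 and 159 in A/J cells, 270.2, 146 and 191 in BALB/cJ cells, and 9.33, 4.66 and 5.67 in C57BL/6J cells (5.12 ± 0.39, adjusted p = 1.03e-09 for A/J and 4.94 ± 0.39, adjusted p = 1.7e-09 for BALB/cJ over C57BL/6J). Windows upstream of Ifnar2 and Ifngr2 (a different Ifngr2 window in each comparison) were lower, at -3.53 ± 0.56, adjusted p = 0.00113 for Ifnar2 and -1.81 ± 0.26, adjusted p = 2.52e-05 for Ifngr2 in A/J over C57BL/6J, and -3.03 ± 0.54, adjusted p = 0.00232 for Ifnar2 and -1.42 ± 0.23, adjusted p = 0.000101 for Ifngr2 in BALB/cJ over C57BL/6J.

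Of the JAK–STAT and interferon regulatory factors, 116 windows were tested. A/J over BALB/cJ had 4 called higher, A/J over C57BL/6J 1 lower, and BALB/cJ over C57BL/6J 1 higher and 8 lower (3.45%, 0.862% and 7.76%, beside 3.63%, 7.09% and 8.56% of all windows). Single windows assigned to Tyk2 (1.16 ± 0.30, adjusted p = 0.0234) and Irf5 (1.31 ± 0.32, adjusted p = 0.0158) were higher in A/J than in BALB/cJ. In BALB/cJ over C57BL/6J, windows assigned to Irf1 (-1.38 ± 0.28, adjusted p = 0.00131) and Irf5 (-1.28 ± 0.32, adjusted p = 0.00904) were lower. A window assigned to Irf8 was higher (1.08 ± 0.32, adjusted p = 0.0271), and in A/J over C57BL/6J another Irf1 window was lower (-1.39 ± 0.41, adjusted p = 0.0341). The Irf5 window lay 28016 bp from the Irf5 start site and the Irf8 window 79632 bp from that of Irf8.

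Of the negative regulators, 66 windows were tested. 1 was higher in A/J over BALB/cJ, at Ptpn6, the phosphatase SHP-1 (1.52 ± 0.25, adjusted p = 0.000259), and 2 were lower in BALB/cJ over C57BL/6J, at Ptpn6 (-2.10 ± 0.25, adjusted p = 1.07e-06) and Ptpn2 (-1.11 ± 0.28, adjusted p = 0.0097), whereas 0 were called in A/J over C57BL/6J (1.52%, 3.03% and 0% of its windows, beside 3.63%, 8.56% and 7.09% of all). Among 49 tested windows of chromosomal neighbors and related loci, A/J over C57BL/6J had 2 higher and 1 lower and BALB/cJ over C57BL/6J 2 higher (6.12% and 4.08%, beside 7.09% and 8.56% of all windows). On chromosome 12, an intergenic window assigned to Rnf144a, chr12:26424750-26425750, had 31.7, 53.4 and 47.2 in A/J cells, 34.6, 43.5 and 51.1 in BALB/cJ cells, and 6.66, 9.31 and 2.52 in C57BL/6J cells (3.06 ± 0.46, adjusted p = 3.69e-05 for A/J and 3.08 ± 0.46, adjusted p = 3.18e-05 for BALB/cJ over C57BL/6J). A window of Oas1a was the one called lower in A/J (-1.05 ± 0.32, adjusted p = 0.0425).

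On other chromosomes, the log2 normalized counts most like those of chr12:26438410-26439410 over the 9 parental libraries were at St6galnac1 (Pearson r = 0.996), Gm17745 (0.995), Arid5b (0.993), Clmp (0.993) and Cacna1a (0.993). These were picked as the highest among all windows, and the points share library, strain and depth, so the values describe a pattern. Each of the 5 was high in both A/J and BALB/cJ, with means from 86.5 (Gm17745 in A/J) to 228 (Cacna1a in BALB/cJ), and low in C57BL/6J, with means from 3.07 (Cacna1a) to 12.6 (Arid5b).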

How the data were processed

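H3K27ac ChIP–seq was analysed in 9 parental and 3 CB6F1/J libraries, with 7 parental ChIP inputs. The CB6F1/J inputs were not used here. Per the authors' methods, reads were mapped with Bowtie2 to the genome of each strain (mm10, or mm10 carrying the strain's variants), shifted to mm10 with MMARGE and counted with HOMER around merged ATAC-seq peaks, without normalization (versions not given in the sources used here). As deposited, replicates 1 and 3 of each strain are whole-number counts of tags. The deposited replicate 2, input and CB6F1/J columns are expected counts in steps of 0.5, and how these arose is not stated. CB6F1/J counts are of reads that span a variant, in regions that are 200 bp in the deposited table.

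Values ending in 0.5 were rounded to the nearest even whole number. This was settled after first fits with such values rounded up had been seen, and rounding up is given as an added alternative. CB6F1/J regions with their midpoint in a parental window were summed into it. Windows with a mean normalized count over 16 were fitted with edgeR 4.0.16 (TMM, robust quasi-likelihood), all 9 parental libraries together and the 6 allele columns apart, with strain minus allele as an interaction in 1 fit. P-values are Benjamini–Hochberg adjusted over all windows tested, and calls need a log2 fold change above 1 in size at an adjusted p below 0.05 (for the interaction, adjusted p alone). Fits were tested on simulated data. Effective sizes were 2454651 to 11561221, and the biological coefficient of variation was 0.214 between parental replicates and 0.282 between allele columns.

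Members, lists and naming rule were chosen with earlier results of these data known. For each gene the rule names the window nearest the start site, that of lowest p and every called one, and of each list up to 4 genes of lowest adjusted p per comparison, and 1 gene of a list is not reported here. Libraries of the same number deviated together (correlation 0.215 to 0.402 in 9 pairs, against -0.308 to 0.0612 in 18 others), so the numbers pair the samples, and the 2 allele columns of a number are from 1 library. Blocked values are given where they change a call. Alternatives were DESeq2 1.42.0, other scaling and filters, the block, only the 2 strains compared, each library left out and number 2, the shallowest, left out of every strain.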

Additional observations from a re-analysis of the deposited data

How the results depend on the processing

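Direction was kept by all 24 called values of the named windows in all 416 alternative values, and 363 of these kept the call and 53 lost it. Of 1055 alternative values for 68 uncalled ones, 16 passed the test and 45 changed sign without passing. The replicate block changed no call besides those given above. With it, 2 member windows were called in A/J over BALB/cJ, 0 between alleles and 1 for the strain minus allele difference, while A/J over C57BL/6J (10) and BALB/cJ over C57BL/6J (12) kept their counts. Over all windows, the block moved the first 3 from 2192 to 3257, from 377 to 134 and from 127 to 344. It moved A/J over C57BL/6J from 4282 to 5379 and BALB/cJ over C57BL/6J from 5171 to 6324. In A/J over BALB/cJ, where 1 was called, 0 were called with DESeq2, library totals, a mean count over 32 or the 2 strains alone, and 0 to 1 leaving out a library. Over all windows these settings gave 2076, 2016, 1494 and 2174 calls, and 1331 to 2455 leaving out a library. The leave-out range was 7 to 11 in A/J over C57BL/6J, 6 to 14 in BALB/cJ over C57BL/6J (15 without number 2 of every strain) and 0 to 3 between alleles. Over all windows it was 2719 to 5020, 3328 to 5763 (6918 without number 2) and 133 to 410 in the same order. Between alleles, 0 were called with each F1 region as deposited or a mean count over 32, and 4 with no filter. Over all regions or windows these settings gave 293, 200 and 702 calls. For the strain minus allele difference, 0 were called with TMM scaling and a mean count over 16, and 1 was called with DESeq2 or, in edgeR, with RLE size factors, library totals, a mean count over 32 or no filter. Over all windows these settings gave 127 and then 171, 139, 153, 71 and 256 calls. Rounding values that end in 0.5 up, chosen after seeing the data, left the 5 counts as they were (1, 10, 12, 1 and 0) with 53 member windows tested. Apart from filters, which change how many windows are tested, the cause of these changes was not tested. The allelic results are limited by depth and by the variants that reads can span. The allele columns held 182654 to 400681 counts each, and 43 of the 54 windows tested between strains had too few allelic counts or none.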
